A study of Saccharomyces cerevisiae with 25 samples.

Results

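The 6 genes described here make and break down polyphosphate in Saccharomyces cerevisiae: VTC1, VTC2, VTC3 and VTC4, which encode subunits of the vacuolar transporter chaperone (VTC) complex, and the polyphosphatase genes PPN1 and PPX1. They were chosen by name for this role, out of 6648 gene names. Total RNA was sequenced from 1 strain in the BY4741 background, a laboratory haploid. Per the labels its genotype is pho84pr-YFP, a yellow fluorescent protein reporter under the promoter of the phosphate transporter gene PHO84, with delta-phm3, and PHM3 is another name of VTC4. The groups were 24 libraries from medium without phosphate, taken every 15 min from 15 to 360 min, and 1 library from high phosphate medium, called 0 min, taken before the cells were washed and moved. Every library carries the same reporter and the same deletion label, each time has 1 library, and no library of a strain with PHM3 intact was analysed here. Any effect of the deletion therefore cannot be told apart from that of the strain, and the wash, the new medium and elapsed time cannot be told apart from the loss of phosphate.

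Polyphosphate is a chain of phosphate units that yeast stores in its vacuole and draws on when phosphate runs short. The VTC complex builds the chain from ATP on the cytosolic side of the membrane and passes it into the vacuole. Vtc4 holds the polymerase domain, Vtc1 is a small membrane subunit common to all forms of the complex, and Vtc2 and Vtc3 are alternative subunits of different forms. Vtc2, Vtc3 and Vtc4 carry an SPX domain, a module that binds inositol pyrophosphates and so reads the phosphate state of the cell. Ppn1 cuts polyphosphate in the vacuole, and Ppx1 removes phosphate from chain ends in the cytosol. Phosphate starvation genes of yeast are switched on by the transcription factor Pho4, which binds CACGTG and CACGTT.

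Values are log2 RPM, the log2 of reads per 1000000 listed reads of a library, and a level is therefore a share of that library. Depth was worked out by taking the smallest value of a library as 10 reads, and lay between 106672 and 1911747 reads. The shallowest libraries were those at 195 min (106672 reads) and 345 min (188278 reads). The libraries at 90 and 105 min lay closest to the one at 0 min, with a Pearson r of 0.971 and 0.976 over 2205 genes. All 6 members were listed in all 25 libraries, so none was lost to the listing limit of 10 reads. Their values were whole numbers of reads in every library, and none of their coordinates overlaps another annotated gene. The MATa pheromone genes MFA1 and MFA2 were listed in 25 libraries, while HIS3, LEU2 and MET17, loci missing from the strain background, were listed in 0. URA3, another such locus, is left out of this count. Reads were not limited to MATa markers. STE3, a gene of MAT alpha cells, had enough values to enter the test of change with time, as did the MATa genes STE2 and BAR1. STE3 is a single marker, and no result of that test is given here for any other MAT alpha gene, such as SAG1 or the alpha-factor genes. Mating type was not tested.

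VTC4 (chromosome X, 411234 to 413399, minus strand, R64), the gene that the strain is labelled as lacking, had 50 to 517 reads in each of the 25 libraries. The libraries are therefore called "labelled phm3_del", and every direction below is that of libraries so labelled. How much of the gene was deleted is not stated in the labels, and positions of reads were not analysed here. VTC4 stood at 7.92 log2 RPM at 0 min, with 354 reads. Without phosphate its lowest, median and highest levels were 7.78, 8.08 and 8.39 at 15 to 120 min, 7.66, 7.93 and 8.87 at 135 to 240 min, and 7.88, 8.02 and 8.21 at 255 to 360 min. The value at 0 min lay inside the range of each window. VTC4 was above 0 min in 18 of 24 libraries, beyond the counting interval of the difference in 5, and was below it beyond that interval in 0. The highest level, at 195 min, rests on 50 reads (95% counting interval 8.44 to 9.27).

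VTC4 shares an upstream sequence motif with the other VTC genes. The letters CACGTG, which read the same on both strands, and CACGTT, searched on both strands, were looked for in the 500 bases before each start codon. CACGTG was present before 6.23% and CACGTT before 16% of 6000 genes with such a window. All 4 VTC genes held CACGTG, whereas neither motif was found before PPN1 or PPX1. The stretches below are from the R64 genome, 5′ to 3′ on the strand of the gene, with the motifs in capitals. In the levels that come next VTC4, which held 2 copies, did not follow VTC1, VTC2 and VTC3. The strain is labelled as lacking VTC4, so how the intact gene responds was not tested.
VTC1, chrV:302629-302674, plus strand: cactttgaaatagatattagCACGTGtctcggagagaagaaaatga
VTC2, chrVI:131479-131524, plus strand: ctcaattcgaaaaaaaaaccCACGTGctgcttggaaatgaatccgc
VTC3, chrXVI:517271-517383, minus strand: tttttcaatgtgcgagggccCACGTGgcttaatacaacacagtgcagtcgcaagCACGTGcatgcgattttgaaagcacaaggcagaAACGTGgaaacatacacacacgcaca
VTC4, chrX:413487-413544, minus strand: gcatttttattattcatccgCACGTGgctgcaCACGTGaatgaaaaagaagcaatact
The copy of VTC1 lies 157 to 152 bases before the start codon. VTC2 has its copy 311 to 306 bases before the start, where it reaches into the RNA gene RUF20, whose nearer end is separated from the start codon by 306 bases. In VTC3 there are copies at 345 to 340 and 311 to 306 bases, and the third motif, CACGTT read from the other strand, is at 278 to 273 bases. The copies of VTC4, at 125 to 120 and 113 to 108 bases, are the closest to a start codon among the 4 genes. A match of letters describes the sequence only, and binding was not measured.

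VTC1, VTC2 and VTC3 rose at the first sample without phosphate and were above 0 min in 24 of 24 libraries, each time beyond the counting interval of the difference. VTC1 (chromosome V, 302806 to 303195, plus strand) stood at 8.82 log2 RPM at 0 min and 10.64 at 15 min. Its lowest, median and highest levels were 10.64, 11.38 and 11.56 at 15 to 120 min, 11.71, 11.79 and 11.87 at 135 to 240 min, and 11.50, 11.59 and 11.79 at 255 to 360 min. No library without phosphate came near the 0 min level, and the early window was the widest. VTC3 (chromosome XVI, 514511 to 517018, minus strand) stood at 7.72 at 0 min and 10.27 at 15 min. Its levels were 9.97, 10.52 and 10.82 in the early window, 10.39, 10.92 and 10.94 in the middle window, and 10.62, 10.74 and 10.95 in the late window. VTC3 held almost level from 135 min on, apart from the low value at 195 min, which rests on 143 reads. VTC2 (chromosome VI, 131810 to 134296, plus strand) stood at 7.79 at 0 min and 9.07 at 15 min. Its levels were 8.70, 9.27 and 9.62 in the early window, 9.38, 9.54 and 10.04 in the middle window, and 9.22, 9.37 and 9.48 in the late window. VTC2 thus moved in the same direction over a smaller span, and its 3 windows overlapped each other.

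**Figure D1:**
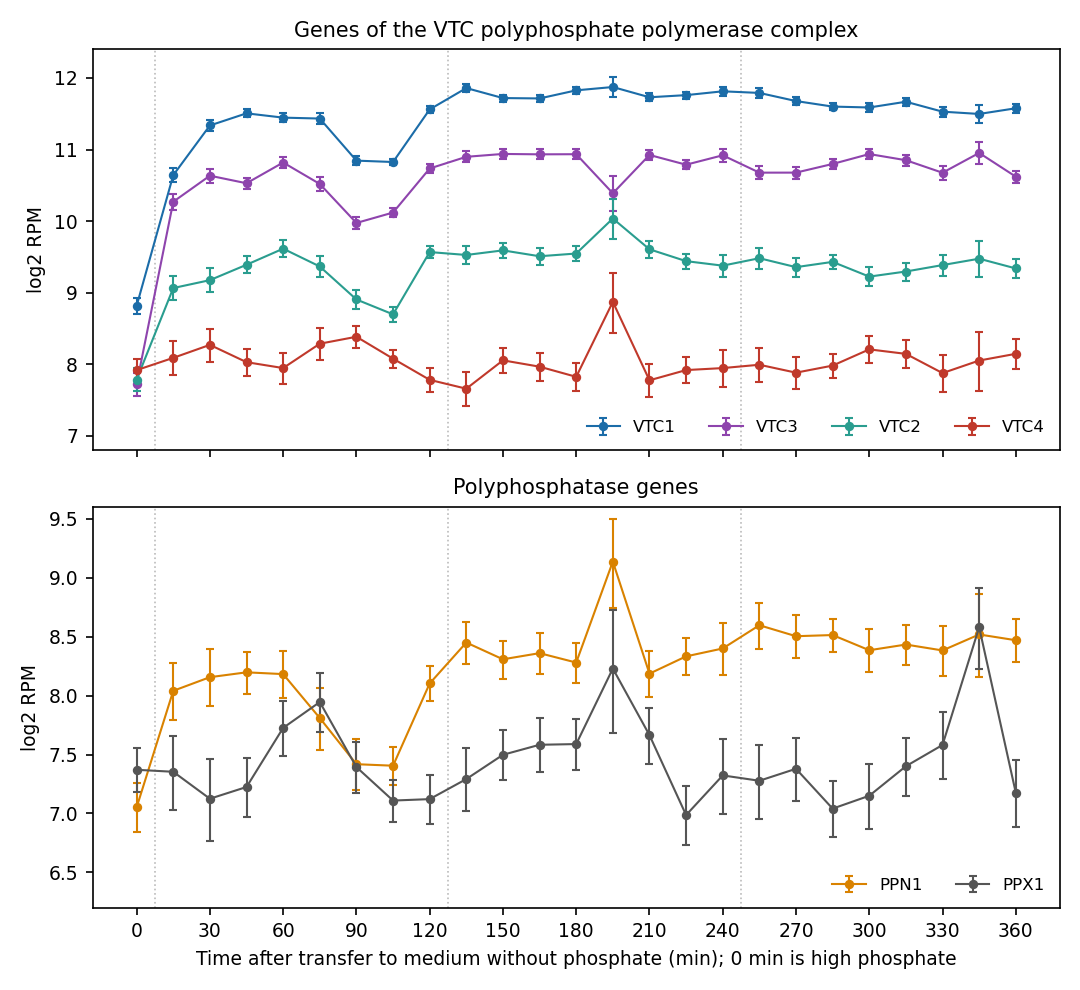
Level of each member in each library, in log2 RPM on the vertical axis, against minutes after transfer to medium without phosphate. Bars are 95% counting intervals and dotted lines separate 0 min and the 3 windows. VTC1, VTC3 and VTC2 leave their 0 min level by 15 min, dip at 90 and 105 min and stay high afterwards. PPN1 dips at the same times, while VTC4 and PPX1 have libraries on both sides of their 0 min level, with their highest points in the shallow libraries at 195 and 345 min.

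The comparison of windows with high phosphate asks how far each gene had moved early and late in starvation. In the late window (255 to 360 min, n = 8) against high phosphate (n = 1), 4 of 6 members were higher and 0 lower. Over all 4613 genes tested, 25.0% were higher and 5.46% lower, in limma with Benjamini-Hochberg adjustment at 0.05. The 1154 higher and 252 lower genes became 393 and 440 with libraries centred on the median of their tested genes, and 598 and 438 with centring on the genes that all 25 libraries list, while the 4 members passed under both. VTC3 was 8.29-fold higher (log2 difference 3.05, SE 0.27, adjusted p = 1e-08). VTC1 was 6.96-fold higher (2.80, SE 0.27, adjusted p = 6.18e-08), and VTC2 was 3.0-fold higher (1.59, SE 0.27, adjusted p = 9.5e-05). VTC4 differed by 0.12 (95% interval -0.49 to 0.72, adjusted p = 0.79). Among the differences of all tested genes, VTC3 stood at the 98.4th percentile, VTC1 at the 97.9th, VTC2 at the 89.5th and VTC4 at the 33.7th. A shift common to all genes leaves this order as it is, with 3 VTC genes in the upper part and VTC4 in the lower part. In RNA from a whole culture, a larger share of responding cells and more RNA per cell cannot be told apart.

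PPN1 (chromosome IV, 1362878 to 1364902, plus strand), the gene of the vacuolar polyphosphatase, was the other member that rose. Its level was 7.05 log2 RPM at 0 min, with 194 reads, and 8.04 at 15 min. The lowest, median and highest levels were 7.40, 8.07 and 8.20 in the early window, 8.19, 8.35 and 9.14 in the middle window, and 8.38, 8.49 and 8.60 in the late window. PPN1 was above 0 min in 24 of 24 libraries and the early and late windows did not overlap. In the late window it was 2.68-fold higher than in high phosphate (1.42, SE 0.30, adjusted p = 0.000696), at the 87.1st percentile of all tested genes.

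PPX1 (chromosome VIII, 499950 to 501143, minus strand), the gene of the cytosolic exopolyphosphatase, passed in no comparison of windows. Its level was 7.37 log2 RPM at 0 min. The lowest, median and highest levels were 7.11, 7.29 and 7.94 at 15 to 120 min, 6.99, 7.54 and 8.23 at 135 to 240 min, and 7.04, 7.33 and 8.58 at 255 to 360 min. It was above 0 min in 12 of 24 libraries, beyond the counting interval of the difference in 4, and below 0 min beyond that interval in 3, and the window ranges all enclosed the 0 min level. The late window differed from high phosphate by 0.08 (95% interval -0.75 to 0.91, adjusted p = 0.899), and by -0.084 without the 345 min library. That library gave the highest level, on 72 reads.

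The middle window (135 to 240 min) gave the same picture, with 4 of 6 members higher than in high phosphate and 0 lower. Over all genes 20.6% were higher and 5.12% lower, or 949 and 236 genes, which became 264 and 383 with median centring and 446 and 403 with centring on the genes that all 25 libraries list. The differences were 3.12 (SE 0.27) for VTC3, 2.97 (SE 0.27) for VTC1, 1.79 (SE 0.27) for VTC2 and 1.38 (SE 0.30) for PPN1, with adjusted p from 6.08e-09 to 0.00139. PPN1 did not pass with libraries centred on the median of their tested genes (0.79, adjusted p = 0.0611). VTC4 differed by 0.08 (95% interval -0.52 to 0.69) and PPX1 by 0.15 (-0.68 to 0.98).

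In the early window (15 to 120 min) VTC1, VTC2 and VTC3, 3 of 6 members, were higher than in high phosphate and 0 were lower. Few genes of the whole table passed here: 0.694% were higher and 0.0% lower, and 647 of 4613 had an unadjusted p under 0.05. These 32 genes became up to 116 without the 90 or the 105 min library, and 603 (524 higher and 79 lower) without both. VTC3 was 6.62-fold higher (2.73, SE 0.27, adjusted p = 1.25e-07) and VTC1 5.22-fold (2.38, SE 0.27, adjusted p = 1.95e-06). VTC2 was 2.71-fold higher (1.44, SE 0.27, adjusted p = 0.0052), but did not pass with libraries centred on the median of their tested genes (1.18, adjusted p = 0.138). PPN1 differed by 0.86 (SE 0.30, adjusted p = 0.223) and passed without the 90 and 105 min libraries (1.03, adjusted p = 0.0098). VTC4 differed by 0.19 (95% interval -0.41 to 0.79) and PPX1 by 0.0044 (-0.82 to 0.83). The 4 genes had covered much of their late change by 15 min, when the log2 difference from 0 min was 83.5% of the late one for VTC3, 80.6% for VTC2, 69.5% for PPN1 and 65.2% for VTC1.

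**Figure D2:**
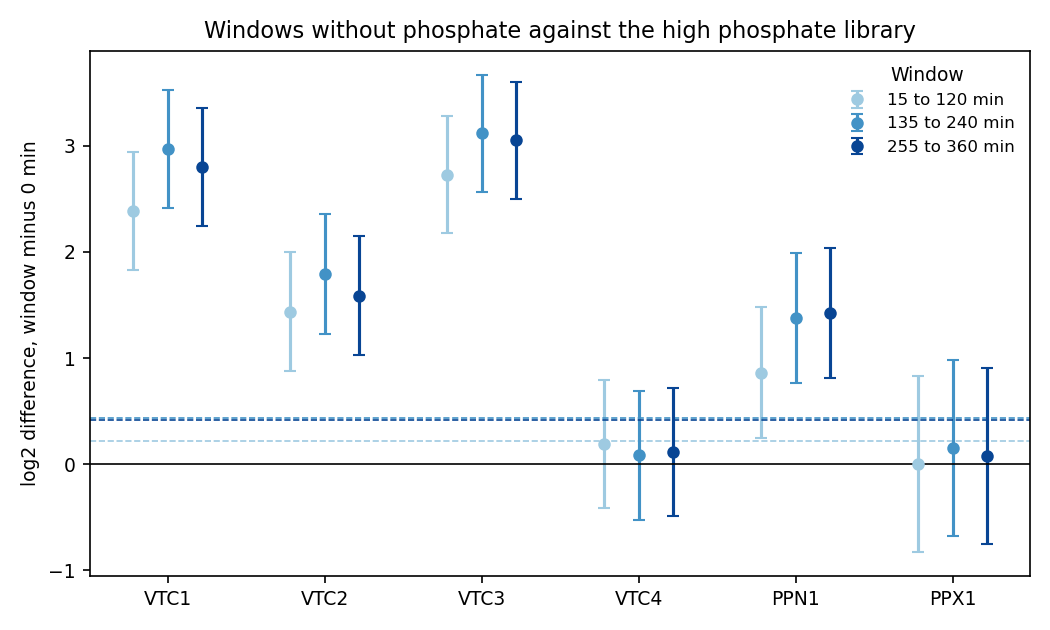
Log2 difference of each window without phosphate from the 0 min library, on the vertical axis, for the 6 members, with 95% intervals from limma. Dashed lines give the median difference of all tested genes in each window. VTC1, VTC2 and VTC3 lie above 0 and above those medians in every window, and the intervals of VTC4 and PPX1 include 0.

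The members' levels can be set against each other only per coding length, here as RPM per 1000 coding bases. At 0 min the order was VTC1 at 1155, PPX1 at 139, VTC4 at 112, VTC2 at 88.8, VTC3 at 84.2 and PPN1 at 65.5. In the late window the means were 8058 ± 532 for VTC1, 700.4 ± 63.3 for VTC3, 267 ± 16.3 for VTC2, 176 ± 8.94 for PPN1, 155 ± 68.5 for PPX1 and 122 ± 10.4 for VTC4 (SD, n = 8). VTC3 had moved past 3 of the other genes, and PPN1 had left the last place to VTC4. VTC4 was divided by its full coding length of 2166 bases, although the strain is labelled as lacking the gene. How much of it was deleted is not stated, so its level per length and its place in the order are uncertain. VTC1 was above VTC3, and VTC3 above VTC2, in all 24 libraries without phosphate, and these neighbours did not overlap within any window. VTC2 and PPN1, next in order, overlapped in the middle window and not in the late one, and the ranges of PPN1 and PPX1 and of PPX1 and VTC4 overlapped in both.

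**Figure D3:**
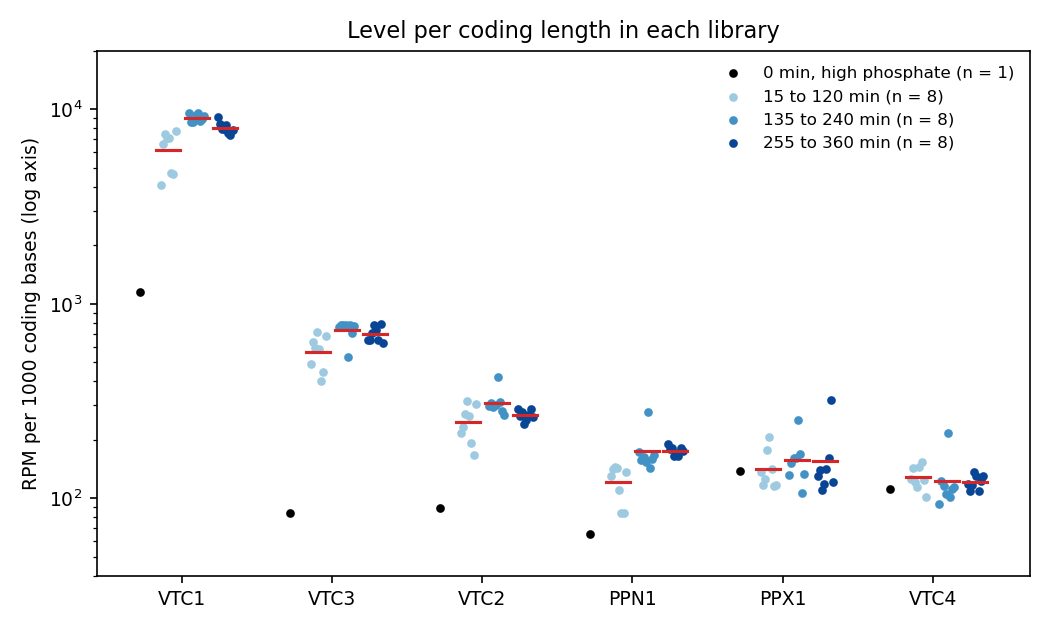
RPM per 1000 coding bases on a log axis, for each member, with 1 point per library and red bars for window means. VTC4 is divided by its full coding length, though how much of the gene was deleted is not stated. From left to right in each gene are 0 min, 15 to 120, 135 to 240 and 255 to 360 min. VTC1 lies near 8058 in the late window, far above the others. PPN1, PPX1 and VTC4 have the lowest means in each window without phosphate. In the late window all PPN1 values (lowest 165) lie above all VTC4 values (highest 137).

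Ratios of 2 members within a library do not depend on how libraries are scaled. The ratio of VTC3 to VTC2, alternative subunits, was -0.06 on the log2 scale at 0 min and between 0.35 and 1.71 in every library without phosphate. Its mean was 1.40 ± 0.17 in the late window and 1.23 ± 0.14 in the early window (SD, n = 8 each), a difference of 0.17. VTC4 to VTC1, the polymerase gene against that of the shared small subunit, was -0.90 at 0 min. This ratio averaged -3.58 ± 0.16 in the late window and -3.09 ± 0.48 in the early window, a difference of -0.49. PPN1 to PPX1 was -0.32 at 0 min, and averaged 1.03 ± 0.48 in the late window and 0.54 ± 0.45 in the early window, a difference of 0.49. Late and early ranges overlapped for all 3 ratios. In two-sided exact permutation tests adjusted over the 3 ratios, none passed (adjusted p = 0.0577, 0.0508 and 0.0577 in the order given). Without the 345 min library, where PPX1 was high, VTC4 to VTC1 gave -0.51 (adjusted p = 0.0284) and PPN1 to PPX1 gave 0.64 (adjusted p = 0.0103), by the same exact permutation test. Without the 90 and 105 min libraries none passed, at 0.18, -0.33 and 0.36 (adjusted p = 0.109, 0.109 and 0.186 by the same exact permutation test). Single libraries decide these tests: without 30 or 255 min VTC3 to VTC2 also passed, without 30, 45, 60, 120 or 255 min VTC4 to VTC1, and without 30 min PPN1 to PPX1. For VTC4 to VTC1 the unadjusted p of the exact permutation test was 0.0169 with all libraries. It was higher without 30, 255 or 345 min (0.032, 0.0305 and 0.019) and lower without 45, 60 or 120 min (0.0134, 0.0127 and 0.00404). Passing without 30, 255 or 345 min thus came from the adjustment, as the p of another ratio fell.

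**Figure D4:**
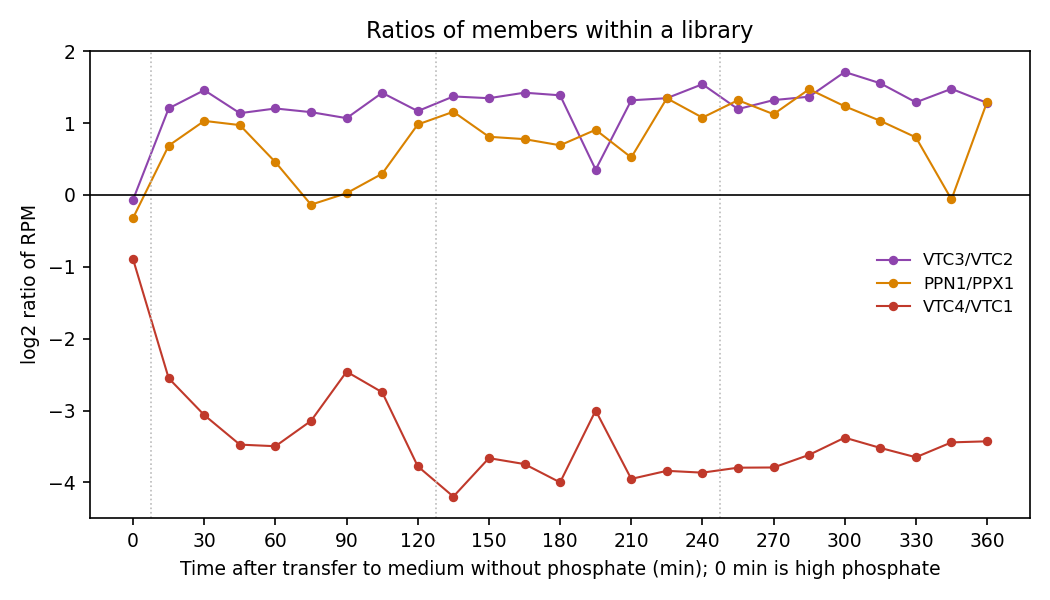
Log2 ratio of RPM between pairs of members in each library against minutes after transfer. VTC3 to VTC2 and PPN1 to PPX1 stand at -0.06 and -0.32 at 0 min, and VTC3 to VTC2 is positive in every later library. VTC4 to VTC1 stands at -2.46 at 90 min, -4.20 at 135 min and -3.0 at 195 min.

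Late against early windows compares levels within starvation, without the single 0 min library. The early window holds the 90 and 105 min libraries, which lay closest to 0 min. VTC1, VTC3 and PPN1 were higher late, 3 of 6 members, and 0 were lower. Over 4634 tested genes 31.5% were higher and 8.85% lower, so the members' share is near the background. The 1462 higher and 410 lower genes became 600 and 840 with libraries centred on the median of their tested genes, and 976 and 715 with centring on the genes that all 25 libraries list. The median tested gene differed by 0.23 here, by 0.42 in the late window against high phosphate, and by 0.22 in the early window against high phosphate. PPN1 differed by 0.56 (SE 0.14, adjusted p = 0.00234), VTC1 by 0.42 (SE 0.13, adjusted p = 0.0106) and VTC3 by 0.32 (SE 0.13, adjusted p = 0.0428). VTC2 differed by 0.15 (95% interval -0.11 to 0.42), VTC4 by -0.07 (-0.36 to 0.21) and PPX1 by 0.07 (-0.32 to 0.46). The call of VTC3 was lost without any 1 of the libraries at 15, 90, 105, 285, 300, 315 and 345 min (adjusted p up to 0.105). Of the 3 calls, that of PPN1 alone held with libraries centred on genes listed in all 25 (0.37, adjusted p = 0.0135) and without the 90 and 105 min libraries (0.39, adjusted p = 0.0188). With libraries centred on the median of their tested genes PPN1 also failed (0.24, adjusted p = 0.18), and VTC4 was the 1 member that passed, lower by 0.39 on the log2 scale (-0.39, adjusted p = 0.0303).

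In the middle against the early window 4 of 6 members were higher and 0 lower, where 21.3% of all genes were higher and 5.18% lower, or 987 and 240 genes (221 and 353 with median centring, 467 and 355 with centring on the genes that all 25 libraries list). The differences were 0.59 for VTC1 (adjusted p = 0.00116), 0.52 for PPN1 (adjusted p = 0.00798), 0.39 for VTC3 (adjusted p = 0.0243) and 0.36 for VTC2 (adjusted p = 0.0412). With libraries centred on genes listed in all 25, or without the 90 and 105 min libraries, VTC1 was the 1 member called higher. None of the 4 passed with libraries centred on the median of their tested genes (adjusted p from 0.369 to 0.923), while VTC4 was called lower (-0.44, adjusted p = 0.0336). The call of VTC3 was lost without the 90 or the 105 min library, and that of VTC2 without any 1 of the libraries at 15, 30, 90, 105, 150, 180, 195 and 210 min. A smooth change with time over the 24 libraries without phosphate was called for 2 of 6 members, VTC1 (adjusted p = 0.0242) and PPN1 (adjusted p = 0.0175), by limma's moderated F test of a spline with 4 degrees of freedom. That test called 31.1% of all genes. PPN1 was not called with 3 degrees of freedom (adjusted p = 0.0529), and with 6 neither was called (adjusted p = 0.0767 for VTC1 and 0.0636 for PPN1).

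The times around 90 and 105 min were chosen with earlier results of these data known, since many genes came back towards their 0 min level there. At 75 to 105 min PPN1 stood at 7.54 ± 0.23 log2 RPM, against 8.18 ± 0.02 at 30 to 60 min (SD, n = 3 each), and the ranges did not overlap. It was the 1 member called, with a difference of -0.63 (SE 0.20, adjusted p = 0.0164), where 22.1% of 4614 genes were lower and 12.1% higher. The 1020 lower and 558 higher genes became 559 and 653 with libraries centred on the median of their tested genes, and 653 and 765 with centring on the genes that all 25 libraries list. The call was lost with either centring of libraries (adjusted p = 0.0669 and 0.127) and without the 90 or the 105 min library (adjusted p up to 0.0699). VTC3 differed by -0.46 (adjusted p = 0.0624), VTC2 by -0.40 (adjusted p = 0.117) and VTC1 by -0.39 (adjusted p = 0.0815), and each passed when the 75 min library was left out (adjusted p down to 0.00589). VTC3 also passed without the 195 or the 345 min library. Its ranges did not overlap either, at 10.20 ± 0.28 against 10.66 ± 0.15 log2 RPM, while those of VTC1 and VTC2 did. VTC4 differed by 0.17 (95% interval -0.30 to 0.63) and PPX1 by 0.12 (-0.53 to 0.78). At 105 min the log2 difference from 0 min was 24.8% of the late one for PPN1, 57.4% for VTC2, 71.8% for VTC1 and 78.6% for VTC3. Among these genes PPN1 was then closest to its high phosphate level, while VTC3 had kept most of its rise on the log2 scale. The genes were not tested against each other.

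At 135 to 165 min against 75 to 105 min, 4 of 6 members were higher and 0 lower, where 28.3% of 4623 genes were higher and 12.0% lower. PPN1 differed by 0.83 (SE 0.20, adjusted p = 0.00194), VTC1 by 0.73 (SE 0.17, adjusted p = 0.00166), VTC3 by 0.72 (SE 0.19, adjusted p = 0.00345) and VTC2 by 0.55 (SE 0.20, adjusted p = 0.0263). The ranges of the 3 libraries did not overlap for any of these genes. VTC4 went the other way in value, at 7.89 ± 0.21 against 8.25 ± 0.16 log2 RPM, also with no overlap, and did not pass (-0.36, SE 0.23, adjusted p = 0.215). PPX1 differed by -0.03 (95% interval -0.68 to 0.63). VTC4 passed as lower when libraries were centred on the genes that all 25 list (-0.61, adjusted p = 0.0253), and there VTC2 (0.30, adjusted p = 0.149) and VTC3 (0.47, adjusted p = 0.0547) lost their calls. With libraries centred on the median of their tested genes PPN1 was the 1 member that passed, and VTC4 gave -0.57 (adjusted p = 0.0532). Over all genes these settings gave 823 higher and 809 lower, and 700 higher and 681 lower, in place of 1310 and 555. VTC2 lost its call without the 90, 105, 135 or 150 min library. Without the 90 and 105 min libraries, which leaves 1 library at 75 to 105 min, limma called 0 members, and 0 had an unadjusted p under 0.05.

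**Figure D5:**
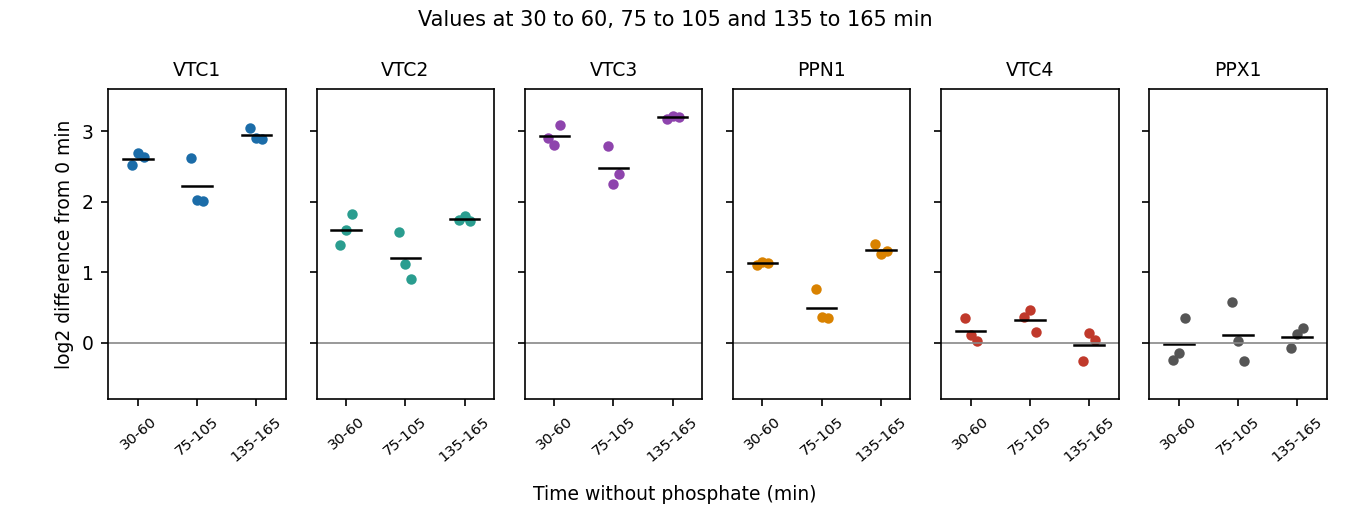
Log2 difference from 0 min at 30 to 60, 75 to 105 and 135 to 165 min, with 1 point per library and a black bar for the mean of 3. VTC1, VTC2, VTC3 and PPN1 are lower at 90 and 105 min and higher again by 135 min, while VTC4 has its lowest value at 135 min.

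Most other genes linked to polyphosphate rose late in starvation as well. Of 7 such genes, all tested, 5 were higher in the late window than in high phosphate and 0 lower, with a median difference of 1.70 against 0.42 over all genes. Of all tested genes 25.0% were higher and 5.46% lower. DDP1, which encodes a phosphatase of inositol pyrophosphates and polyphosphate, differed by 2.51 (adjusted p = 8.95e-05). KCS1 and VIP1, genes of the kinases that make inositol pyrophosphates, differed by 1.88 (adjusted p = 9.38e-05) and 1.70 (adjusted p = 0.000114). PPN2, a further vacuolar polyphosphatase gene, differed by 1.79 (adjusted p = 3.24e-05), and VTC5, whose protein activates the VTC complex, by 1.61 (adjusted p = 0.000625). PHO91, the gene of a vacuolar phosphate transporter, differed by 0.75 (adjusted p = 0.0582), and IPP1, the cytosolic pyrophosphatase gene, by 0.21 (adjusted p = 0.487). Counts of higher genes were 5 in the middle window and 1 in the early window, where VIP1 passed (1.24, adjusted p = 0.0463), with 0 lower in both. Of all tested genes 20.6% were higher in the middle window and 0.694% in the early window. Between late and early windows 6 of the 7 were higher, where 31.5% of all genes were higher. With libraries centred on the median of their tested genes, 4 of the 7 passed late (median 1.13) and VTC5 was lost (1.04, adjusted p = 0.0573). In that setting 0 passed early and 2 passed between late and early windows. Over all genes 393, 9 and 600 were then higher. With libraries centred on genes listed in all 25, the counts were 5, 0 and 4, where 598, 24 and 976 of all genes were higher. Without the 90 and 105 min libraries they were 5, 4 and 5, where 1275, 524 and 1150 of all genes were higher. VTC5 held neither motif in its 500 bases, DDP1 held 1 CACGTG and PPN2 held 1 CACGTT.

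Of 7 genes for SPX domain proteins outside the members, 4 were higher in the late window than in high phosphate and 0 lower (median 0.90). Over all genes 25.0% were higher and 5.46% lower. VTC5 and PHO91 are in this list as well as among the polyphosphate-linked genes, so the lists are not independent. GDE1, which encodes a glycerophosphocholine phosphodiesterase, differed by 2.77 (adjusted p = 5.4e-06), and PHO81, the gene of the kinase inhibitor of the phosphate pathway, by 2.52 (adjusted p = 1.35e-07). VTC5 was the third, and the low-affinity phosphate transporter gene PHO87 the last (0.90, adjusted p = 0.0368). The count was 2 with libraries centred on the median, where VTC5 and PHO87 (0.33, adjusted p = 0.497) no longer passed, and 3 with libraries centred on genes listed in all 25, where PHO87 did not (0.46, adjusted p = 0.299). Over all genes 393 and 598 were higher in these settings. PHO90, the other low-affinity transporter gene, differed by -0.95 (adjusted p = 0.189). PHO90 was higher at 75 to 105 min than at 30 to 60 min (1.34, adjusted p = 0.00146) and lower at 135 to 165 min than at 75 to 105 min (-1.23, adjusted p = 0.0023). Without the 90 and 105 min libraries, which leaves 1 library at 75 to 105 min, the PHO90 differences were still 1.34 and -1.23 but neither passed (adjusted p = 0.0733 and 0.0708). Of 13 other PHO regulon genes, a list that also holds PHO81 and GDE1, 12 were tested. Against high phosphate 12 were higher in the late window and 11 in the early window, with medians of 3.73 and 2.60. Over all genes 25.0% and 0.694% were higher. With libraries centred on the median the counts were 12 late and 6 early, where 393 and 9 of all genes were higher. PHO84, whose promoter drives the reporter, differed by 3.85 late and 2.84 early, above the value of each member in both windows, a difference that was not tested. Its 500 bases held 2 CACGTG and 1 CACGTT, as did those of VTC3.

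By Pearson r of log2 RPM over 25 libraries, among 4140 genes listed in at least 23 of them, the genes most like VTC1 were PHO12 (0.955), PHO11 (0.95) and VTC3 (0.945). VTC2 was most like PHO12 (0.946), VTC1 (0.923) and HOR2 (0.920), and VTC3 was most like VTC1 (0.945), PHO11 (0.930) and PHO84 (0.925). PHO11 and PHO12 are near-identical acid phosphatase genes that may share reads, so each value is uncertain. PPN1 had IGO1 (0.964), DCS2 (0.953) and ATP4 (0.95), none of them a member, with VTC2 at 0.840 and VTC3 at 0.703. VTC4 had UME6 (0.785, 24 libraries), NTE1 (0.722, 23 libraries) and CIA1 (0.696), and its r with VTC1 was -0.02. PPX1 had SLP1 (0.822, 23 libraries), ERV41 (0.818) and POL12 (0.790, 23 libraries). The r values carry the single step between 0 min and the later libraries, the shared depth of each library and, for VTC4 and PPX1, the shallow libraries at 195 and 345 min. By Spearman's rho, 0 of the 3 genes remained for any member.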

How the data were processed

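Total RNA of 25 libraries was sequenced, 24 without phosphate and 1 from high phosphate. Per the submitters' processing notes, alignment used Bowtie and the R64 build. Its version, the annotation and the counting tool are not stated in the labels. The deposited values are log2 RPM, as their sums per library show: 2 raised to the values of a library adds up to 1000000. The series text speaks of normalization to the first time point, but the values are not ratios to it. Genes under 10 reads have no value, and 93.5% to 95.4% of values per library were whole numbers of reads within 0.02. Depth was not read from the labels but worked out by taking the smallest value of a library as 10 reads, which gave 106672 to 1911747 reads. Read counts and counting intervals rest on it, and these intervals cover counting error only. Of 6701 rows, 51 without a name and 2 sharing one were left out.

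The libraries without phosphate were grouped by label time into 3 windows of 8. The fit used limma 3.58.1 (R 4.3.3) on the log2 values, with 4 levels (high phosphate and each window). Benjamini-Hochberg adjustment ran over all tested genes, with a threshold of 0.05. A gene needed a value in 6 of 8 libraries per window (2 of 3 for groups of 3), and at 0 min where that library entered the comparison. The spread of the lone 0 min library is taken to equal that of the rest. Separate cultures per time are not stated in the labels and samples close in time are dependent. The p-values therefore measure only the spread between these libraries. Change with time was tested with a natural spline of 4 degrees of freedom, and 3 ratios with exact permutation tests. The scripts were tested on simulated data. The members and lists were chosen with earlier results of these data known. All 6 members were named, with fixed lists of 7 polyphosphate-linked, 7 SPX domain and 13 other PHO regulon genes, and the 3 genes most like each member. The lists overlap: VTC5 and PHO91 are polyphosphate-linked and SPX domain genes, and PHO81 and GDE1 are SPX domain and PHO regulon genes. Motifs were searched in the RefSeq copy of the R64 genome, whose annotation gave the coordinates. Alternatives covered the scaling of libraries, the pseudocount (log2(RPM + 1)), the filter on listed values, the variance trend, the window boundaries, the spline and single libraries.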

Additional observations from a re-analysis of the deposited data

Results flagged for a closer look

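Within the windows of 8 libraries, 27 groups of values (the 6 members and 3 ratios in 3 windows) were checked for a single library that stood apart by Dixon's criterion, and 8 did so. Chance alone gives about 1 in 20 groups when groups are independent. These are not, since the ratios reuse values of the members and all groups of a window share libraries. The count was therefore not tested against that rate. Of the 8, 6 were at 195 min, the library with 106672 reads, and the other two at 345 min, with 188278 reads. The part of depth in these values was not tested.

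At 195 min VTC2 stood at 10.04 log2 RPM (9.38 to 9.61 in the other libraries of the middle window), on 112 reads, and VTC4 at 8.87 (7.66 to 8.06), on 50 reads. PPN1 stood at 9.14 (8.19 to 8.45), on 60 reads. VTC3 was the 1 member below its window there, at 10.39 (10.79 to 10.94), on 143 reads. The log2 ratio of VTC3 to VTC2 was 0.35 at 195 min (1.32 to 1.54 in the others), and that of VTC4 to VTC1 was -3.0 (-4.20 to -3.66). At 345 min PPX1 stood at 8.58 log2 RPM (7.04 to 7.58 in the other libraries of the late window), on 72 reads, and the log2 ratio of PPN1 to PPX1 was -0.061 (0.80 to 1.47).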

How the results depend on the processing

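VTC1 and VTC3 against high phosphate in each window, VTC2 in the late and middle windows and PPN1 in the late window passed under every alternative run, including the removal of each of the 24 libraries without phosphate in turn. Comparisons between windows held less well. Late against early, 3 members were called as higher, but 1 with libraries centred on the median of their tested genes (VTC4, as lower), 1 with centring on genes listed in all 25, 1 without the 90 and 105 min libraries and 0 with the inner 4 libraries of each window (1 with an unadjusted p under 0.05). Middle against early, 4 were called as higher, but 1 (VTC4, as lower), 1, 1 and 0 (2 unadjusted) under the same settings, and 2 to 4 when single libraries were left out. VTC3 late against early lost its call without any of 7 single libraries (adjusted p up to 0.105), and VTC2 middle against early without any of 8 (up to 0.104). For 75 to 105 against 30 to 60 min, 1 member was called, but 0 with either centring (1 unadjusted, PPN1, in each) and 0 without the 90 and 105 min libraries (0 unadjusted), 3 with genes listed in all 25, 3 without the 195 and 345 min libraries and 3 with a variance trend, and 0 to 4 without single libraries. For 135 to 165 against 75 to 105 min, 4 higher became 1 with median centring, 2 higher and 1 lower (VTC4) with centring on genes listed in all 25, and 0 without the 90 and 105 min libraries, and VTC2 lost its call without any of 4 single libraries. The spline called 2 members, 1 with 3 degrees of freedom (VTC1) and 0 with 6 (2 unadjusted). The causes were not tested.

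The late minus early ratio of VTC4 to VTC1 became -0.51 and that of PPN1 to PPX1 0.64 without the 345 min library, both then passing. For VTC4 to VTC1 the unadjusted p of the exact permutation test was 0.019 in that setting and 0.0169 with all libraries. Without the 90 and 105 min libraries these ratios were -0.33 and 0.36, with neither passing. Without single libraries the ratios ranged from 0.13 to 0.21 (VTC3 to VTC2), -0.59 to -0.40 (VTC4 to VTC1) and 0.39 to 0.64 (PPN1 to PPX1).

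Members that were not called changed sign in places, with no call in either direction. Against high phosphate, under median centring and then under centring on genes listed in all 25, VTC4 gave -0.46 and -0.32 late, -0.50 and -0.36 in the middle and -0.066 and -0.054 early, and PPX1 gave -0.50 and -0.36, -0.44 and -0.29, and -0.25 and -0.24. Late against early, VTC2 gave -0.17 and -0.045 and PPX1 -0.25 and -0.12, and PPX1 middle against early gave -0.18 and -0.050. Without the 195 and 345 min libraries PPX1 gave -0.084 late against high phosphate and -0.088 late against early, and VTC4 -0.040 in the middle. PPX1 late against early gave -0.28 with inner libraries, and VTC1 gave 0.0037 for 75 to 105 against 30 to 60 min without the 90 and 105 min libraries. Without single libraries PPX1 ranged from -0.084 to 0.14 late, -0.077 to 0.042 early, -0.088 to 0.15 late against early, -0.11 to 0.31 at 75 to 105 against 30 to 60 min and -0.21 to 0.21 at 135 to 165 against 75 to 105 min, and VTC4 from -0.040 to 0.13 in the middle.

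Centring moved the balance of higher and lower calls over all genes in every comparison except early against high phosphate, where 32 higher became 9 with median centring. No paired analysis was possible because each time has 1 library and numbers within a window only follow its times. At depths of 106672 and 188278 reads, genes under about 10 reads have no value.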
